A study of Mus musculus with 2 samples.

Results

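Interferon-state basal keratinocytes were cells of the mouse cheek lining that held transcripts of basal keratinocytes together with a raised sum over 6 interferon-induced genes. They were 196 of the 6356 basal-gated cells, out of 16291 barcodes in the 2 matrices. The epithelium came from buccal mucosa of 12-week-old C57BL/6 females, 10 mice pooled, and was sorted for a high surface level of CD104, the β4-integrin chain that anchors basal cells. The single suspension was divided into 2 technical replicates on the 10x Chromium platform, called library 1 and library 2 here. All cells therefore share genotype, age and preparation, no group was treated, and there was 1 independent sample. Values in the 2 libraries show technical spread only, and no p-value is given.

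Interferons are secreted proteins that cells release on sensing viral nucleic acid or, for interferon gamma, that activated lymphocytes release. Type I and type III interferons act through receptors and Janus kinases on transcription factors that bind a DNA element called the ISRE. Interferon gamma acts mainly through a different element, the GAS, and both routes raise MHC class I presentation. Stratified epithelia express the receptors and can answer interferon made by other cells.

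A cell entered the basal gate with 500 or more detected genes, no more than 10% of its UMIs mitochondrial, and, per 10000 UMIs, at least 40 of Krt14 and under 80 of Krt4 and Krt13 together. Within this basal gate, the sum of Isg15, Ifit1, Ifit3, Oasl2, Rtp4 and Ifi44 had to be at least 5 per 10000 UMIs. The rule took 84 of 2936 basal-gated cells in library 1 (2.86%, exact Clopper-Pearson 95% interval 2.29 to 3.53) and 112 of 3420 in library 2 (3.27%, 2.70 to 3.93). The remaining 2852 and 3308 basal-gated cells served as comparison cells. Intervals here and below cover counting error only.

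The 6 genes chose the cells, so their levels are a description. In the interferon-state cells the 6-gene sum ran from 5.05 through a median of 10.6 to 132 per 10000 UMIs in library 1, and from 5.01 through 9.11 to 157 in library 2. Of the comparison cells, 2478 and 2886 held no UMI of these genes, and the highest sums below the limit were 4.99 and 4.98. The limit cut a continuous range: 29 and 27 cells lay between 4 and 5, and 9 and 27 between 5 and 6. The median interferon-state cell held 7 and 5 UMIs of the 6 genes, and the lowest held 2. All 6 genes were detected in only 3 and 8 of the cells, and just 1 gene in 5 and 10. Isg15, a ubiquitin-like protein joined to other proteins, was detected in 70 and 86 of the cells, and Rtp4, a receptor transporter protein induced by interferon, in 70 and 89. Ifit3, which binds viral RNA complexes with Ifit1, was found in only 5 and 9 cells.

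**Figure D1:**
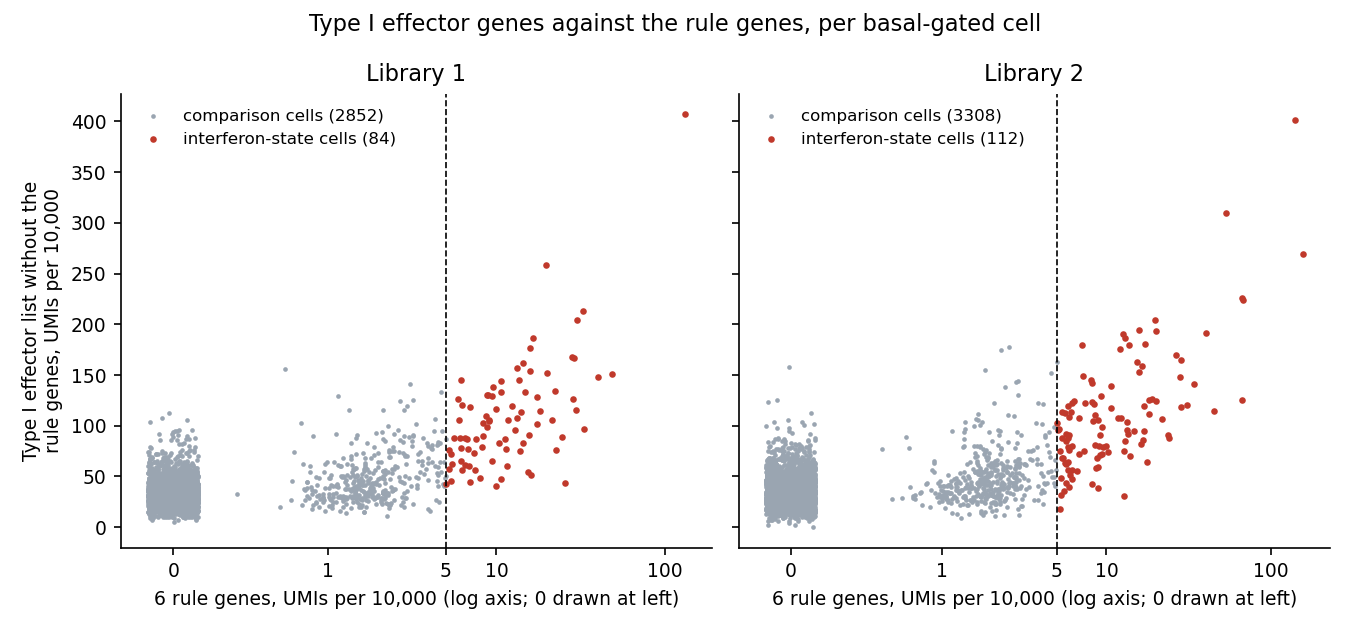
Each point is a basal-gated cell of library 1 (left) or library 2 (right), with the 6-gene sum per 10000 UMIs on a log axis (0 drawn at the left end) and the summed type I effector list without the rule genes on the vertical axis. Interferon-state cells (red, 84 and 112) lie right of the dashed limit at 5, with medians of 102 and 101 against 33.5 and 35.2 in comparison cells (grey).

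Depth was similar in the 2 classes. Median UMIs per cell were 5969 in interferon-state and 6505.5 in comparison cells of library 1, and 5376.5 and 5343 in library 2. Median genes per cell were 2187.5 against 2233, and 2071.5 against 1993. No interferon-state cell exceeded 17438 UMIs, whereas comparison cells reached 37602. The libraries shared 104 barcodes, and no barcode was an interferon-state cell in both.

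The label was checked against defining genes. Keratin Krt5, the partner of Krt14 in basal filaments, stood at 3565 CPM (UMIs per 1000000, summed over cells) in interferon-state and 3451 in comparison cells of library 1, and at 3132 and 3208 in library 2. Trp63, the master transcription factor of stratified epithelia, was at 564 against 473 and 526 against 490 CPM. Both genes lay at nearly the same level in the 2 classes, and Krt5 was detected in all 196 cells. Both classes had passed the same sort and keratin gate. Similar basal levels and few markers of other cell types were therefore favoured in advance. Gbp2, an antimicrobial GTPase named as a marker, was found in 20 and 22 interferon-state cells. Cxcl10, a chemokine that attracts T cells, was found in only 3 and 8, so it marks a minority of the cells so chosen.

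Markers of leukocytes, fibroblasts, endothelium, melanocytes and Merkel cells were near 0. Of 18 leukocyte markers in the files, 11 had no UMI in any interferon-state cell, among them Ptprc, the common leukocyte antigen. Their summed level was 22.8 CPM in interferon-state and 9.18 in comparison cells of library 1, and 13.6 and 13.1 in library 2. Only 1 interferon-state cell, in library 1, held 2 or more leukocyte UMIs. Of 11 fibroblast and endothelial markers, 9 were at 0, with sums of 17.6 and 7.54 CPM against 12.5 and 11.5, and all 8 melanocyte and Merkel markers were at 0. Glandular markers were not near 0 in either class. They summed to 234 against 165 CPM in library 1 and 136 against 143 in library 2. A count of 0 allows up to 5.27 and 4.52 CPM in the interferon-state cells of library 1 and library 2 (3 counts).

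Promoters of 4 induced genes are shown because the ISRE core occurs in them. The core was searched on both strands as the letters GAAA, any 2 bases, and GAAA again, which reads TTTC, any 2 bases, TTTC on the opposite strand. Capitals mark each match. Sequences are the 250 bases before the RefSeq start (GRCm38.p6), written 5′ to 3′ on the gene's strand. Isg15 and Ifit1 helped choose the cells, while Cxcl10 and Rsad2 did not.
Isg15 (chr4:156200819-156201068, minus strand): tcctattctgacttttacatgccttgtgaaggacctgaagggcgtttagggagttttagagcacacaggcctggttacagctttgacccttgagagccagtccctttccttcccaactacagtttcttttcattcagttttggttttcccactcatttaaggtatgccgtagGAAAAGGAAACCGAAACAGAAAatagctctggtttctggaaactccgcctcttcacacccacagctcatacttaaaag
Ifit1 (chr19:34640639-34640888, plus strand): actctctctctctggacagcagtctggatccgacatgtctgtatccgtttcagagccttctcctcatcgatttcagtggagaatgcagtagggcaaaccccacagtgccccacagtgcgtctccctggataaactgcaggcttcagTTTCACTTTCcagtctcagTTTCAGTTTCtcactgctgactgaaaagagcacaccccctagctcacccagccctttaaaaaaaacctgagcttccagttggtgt
Cxcl10 (chr5:92348890-92349139, minus strand): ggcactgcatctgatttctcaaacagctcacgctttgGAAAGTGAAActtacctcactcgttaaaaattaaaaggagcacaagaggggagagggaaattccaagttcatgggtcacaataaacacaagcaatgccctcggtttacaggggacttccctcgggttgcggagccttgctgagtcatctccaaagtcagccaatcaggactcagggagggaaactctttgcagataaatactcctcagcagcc
Rsad2 (chr12:26456453-26456702, minus strand): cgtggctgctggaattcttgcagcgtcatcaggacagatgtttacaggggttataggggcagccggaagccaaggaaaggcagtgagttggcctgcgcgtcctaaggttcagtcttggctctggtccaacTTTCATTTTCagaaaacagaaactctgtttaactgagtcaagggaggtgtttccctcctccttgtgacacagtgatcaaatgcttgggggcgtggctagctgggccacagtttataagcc

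The 3 overlapping matches of Isg15 begin 78, 72 and 66 bases before its start. Ifit1 has matches beginning 104 and 85 bases before the start, Cxcl10 has 1 beginning at 213 and Rsad2 has 1 beginning at 120. Gbp2, whose window is not printed, has 1 beginning at 59. The Ifi44 window holds no match of the core as searched. The core is found in 2.98% of the 32851 windows of the table and in 134 of the 4336 compared genes with a window (3.09%). Among the 107 genes that were higher in interferon-state cells (defined in the next paragraph), 84 had a window and 18 of these held the core (21.4%). The GAS core, searched as TTC, any 3 bases and GAA, which reads the same on both strands, was present in 12 of the 84 (14.3%) and in 6.64% of compared genes. Of 15 lower genes, 13 had a window and none held either core. A match describes letters and is not evidence of binding.

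Counts were summed over cells per library and class, and a gene was called higher or lower when the CPM differed 1.5-fold or more, in the same direction in library 1 and library 2, and its mean level over classes and libraries reached 20 CPM. Of 5529 genes compared, without the rule's 9 genes and mitochondrial genes, 107 were higher (1.94 percent) and 15 lower (0.271 percent). Of the 107, 57 stood below 20 CPM in comparison cells and so entered the comparison through the interferon-state cells. With the floor set on comparison cells alone, 50 of 5460 genes were higher (0.916 percent) and 20 lower (0.366 percent), a setting chosen after the data were seen. Exact conditional binomial intervals of the ratio lay clear of no difference in both libraries for 88 of the 107 and for 6 of the 15. UMIs of 1 cell are not independent, so these intervals are too narrow. The median log2 ratio over all compared genes was 0.02.

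**Figure D2:**
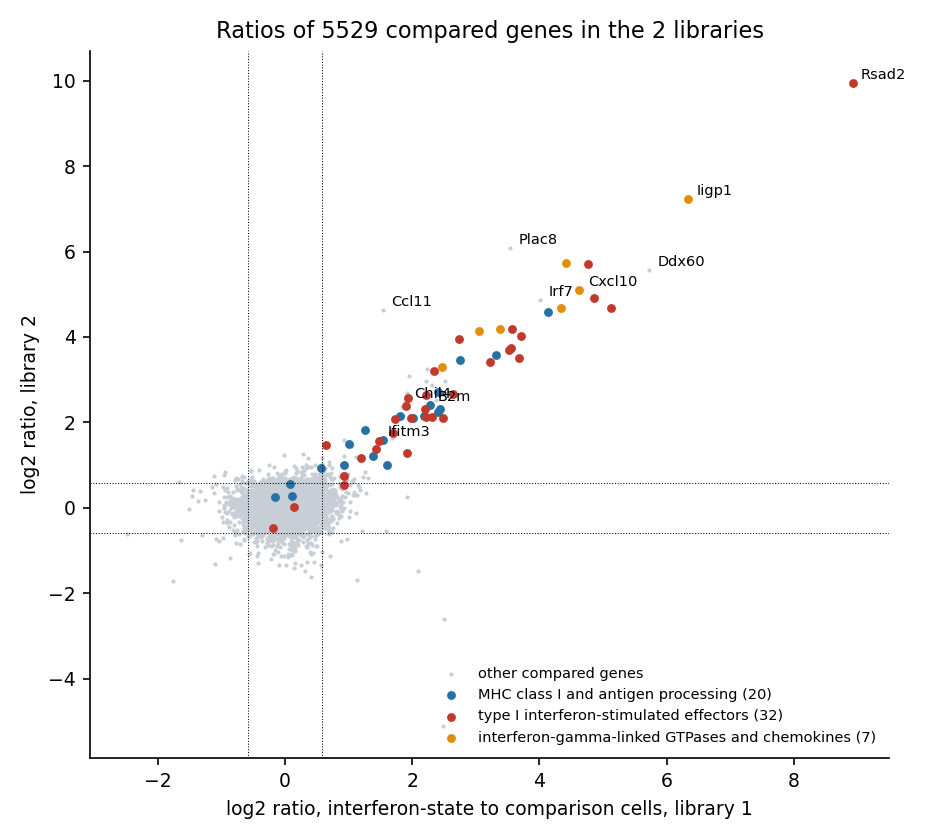
Each point is 1 of 5529 compared genes, with the log2 ratio of interferon-state to comparison cells in library 1 across and in library 2 upward; dotted lines mark 1.5-fold. Type I effectors (red), gamma-linked genes (orange) and MHC class I genes (blue) lie mostly in the upper right, where Rsad2 has 8.92 and 9.95, while most other genes (grey) lie around 0.

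Antiviral effector genes listed as induced by type I interferon were higher nearly throughout. The list names sort genes only, and which interferon acted on the cells was not tested. Of 70 such genes in the files besides the 6 of the rule, 32 were compared, 29 were higher and 0 lower, with a median log2 ratio of 2.25 beside 0.02 for all genes. Among the 11 with at least 20 CPM in comparison cells, 9 were higher, with a median of 1.60. The list's summed level was 10545 against 3668 CPM in library 1 and 11206 against 3773 in library 2. All 84 interferon-state cells of library 1 and 109 of 112 in library 2 lay above the comparison cells' median for this list.

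The effectors differed in how many cells carried them. Ifi27l2a, a small interferon-induced membrane protein, stood at 1155 against 123 CPM in library 1 and 1309 against 123 in library 2 (log2 3.23 and 3.41; chromosome 12, 103442167 to 103443680). It was detected in 72 and 96 interferon-state cells, and its level in both libraries lay far above both comparison values. Bst2, called tetherin because it holds budding virus at the cell surface, was at 167 against 14.1 and 222 against 12.2 CPM (log2 3.56 and 4.19), in 39 and 54 cells. Xaf1, an inducer of apoptosis, was at 128 against 9.77 and 143 against 8.86 CPM (log2 3.71 and 4.02), in 41 and 50 cells. Both genes thus reached about the same numbers of cells.

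Ifitm3, which blocks virus entry through endosomes, was already abundant in comparison cells at 1047 and 1057 CPM and stood at 2920 and 3147 in interferon-state cells (log2 1.48 and 1.57). It was detected in all 196 interferon-state cells. Its neighbour in function Ifitm2 was at 685 against 619 and 691 against 686 CPM (log2 0.15 and 0.01), within the size rule. The surface proteins Ly6a (log2 1.70 and 1.74) and Ly6e (1.43 and 1.37) were higher in both libraries, as was Ly6c1 (1.68 and 1.64). Ly6a and Ly6c1 are close relatives, and reads may be shared between them.

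Usp18, which removes Isg15 from proteins and damps the type I receptor, was at 77.3 against 15.2 CPM in library 1 and 139 against 15.0 in library 2 (log2 2.34 and 3.20). It was found in 26 and 47 interferon-state cells, more often in library 2. Other effectors with high ratios were Slfn2 (log2 4.77 and 5.70), Sp100, a nuclear body protein (3.55 and 3.75), and Parp14, an ADP-ribosyltransferase (3.68 and 3.52). The apolipoprotein L genes Apol9a (5.12 and 4.68) and Apol9b (4.86 and 4.91) are near-identical, so the split of reads between them is uncertain. Outside the list, the helicase Ddx60 was at 54.4 against 1.03 and 52.8 against 1.11 CPM (log2 5.73 and 5.58), in 22 and 26 cells. The ubiquitin ligase Rnf213 had log2 ratios of 3.52 and 3.69.

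Rsad2, which encodes the antiviral enzyme viperin, had the highest ratio of the compared genes in both libraries. It stood at 47.4 and 49.8 CPM in interferon-state cells, against 2 UMIs in all comparison cells of library 1 and 1 UMI in library 2. The log2 ratios were 8.92 (interval 6.93 to 12.0) and 9.95 (7.37 to 15.3). Few cells held it. In all, 5 interferon-state cells held its 27 UMIs in library 1, 23 of them in 1 cell, and 11 cells held 33 in library 2, with 18 of them in 1 cell. Without that cell in each library the log2 ratios were 6.17 and 8.81.

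**Figure D3:**
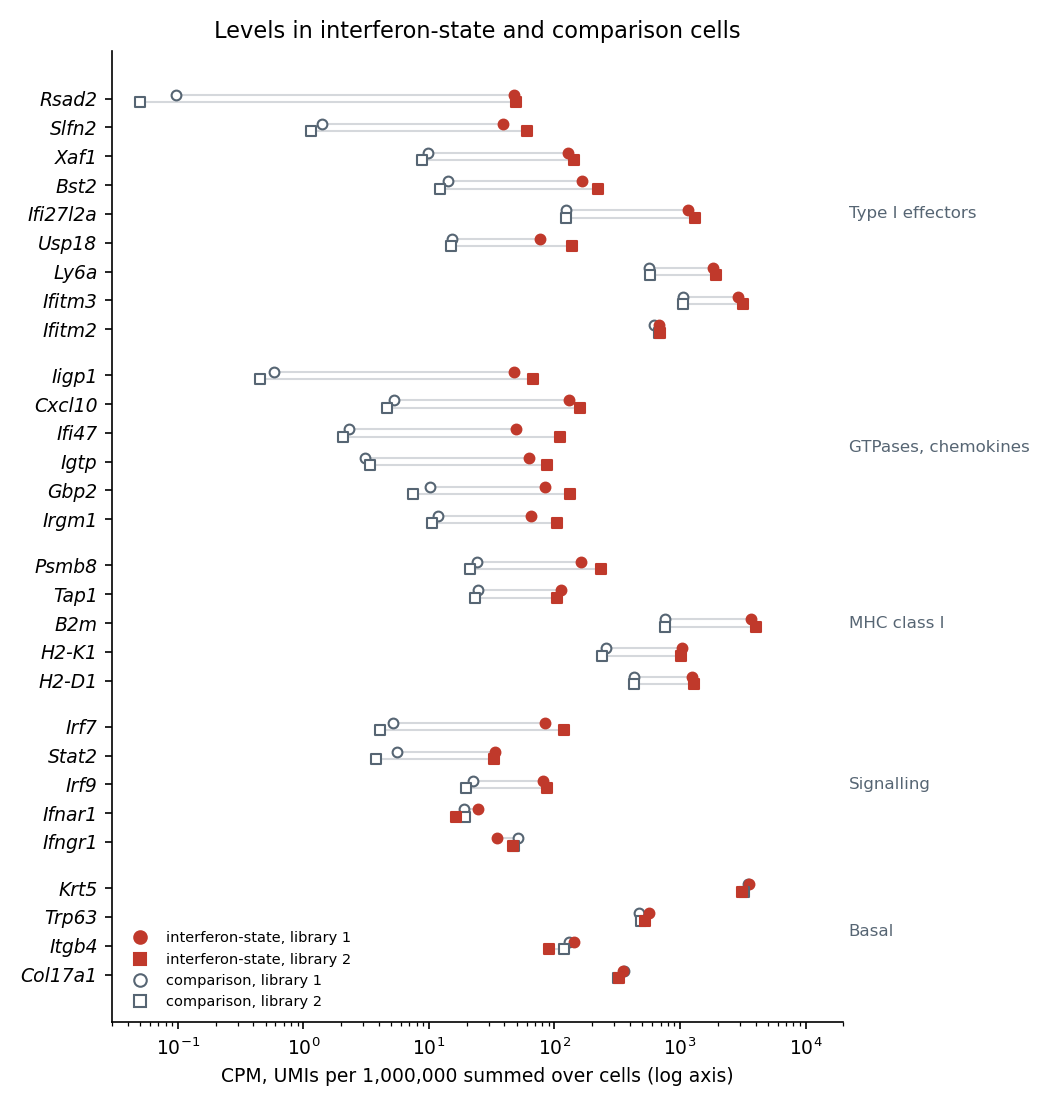
Levels of 29 genes in CPM on a log axis, for interferon-state (red) and comparison cells (white) of library 1 (circles) and library 2 (squares); each point is a sum over the cells of 1 class in 1 library. Ifi27l2a runs from 123 to 1155 CPM in library 1, while the receptors Ifnar1 and Ifngr1, Ifitm2 and the basal genes have red and white points close together.

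Antigen presentation through MHC class I was higher across its steps. Of 23 genes of the list in the files, 20 were compared, 16 were higher and 0 lower, with a median log2 ratio of 1.78. Among the 16 with at least 20 CPM in comparison cells, 12 were higher (median 1.56). Summed levels were 8515 against 2785 CPM in library 1 and 9391 against 2788 in library 2.

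B2m, the light chain shared by all class I molecules, stood at 3644 against 754 CPM in library 1 and 4048 against 765 in library 2 (log2 2.27 and 2.40; chromosome 2, 122147686 to 122153083). It was detected in 84 of 84 and 111 of 112 interferon-state cells. Per cell, its median was 32.1 and 35.7 per 10000 UMIs against 3.68 and 4.18, although the ranges overlapped: comparison cells reached 101 and 93.7. The heavy chains H2-K1 (1036 against 256 and 1027 against 239 CPM, log2 2.02 and 2.10) and H2-D1 (log2 1.54 and 1.60) were higher in both libraries. Among the nonclassical heavy chains, H2-Q6 had 4.14 and 4.59, H2-Q7 3.32 and 3.57, H2-T22 2.44 and 2.32, and H2-T23 1.61 and 1.01. These share much sequence, so reads may be split between them.

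The immunoproteasome subunit Psmb8, which changes how peptides are cut, was at 163 against 24.4 CPM in library 1 and 234 against 21.2 in library 2 (log2 2.74 and 3.46). It was detected in 40 and 62 interferon-state cells. The other immunoproteasome subunits Psmb9 (2.40 and 2.23) and Psmb10 (1.26 and 1.82) and the proteasome activator Psme2 (0.93 and 1.01) were higher by less. The peptide transporter genes Tap1 (2.19 and 2.15) and Tap2 (1.81 and 2.15), their partner Tapbp (139 against 69.2 and 193 against 68.7 CPM) and the peptide-trimming Erap1 (1.39 and 1.21) were higher too. The chaperone Calr, which helps class I molecules fold, was within the size rule, at 283 against 266 and 353 against 241 CPM.

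MHC class II did not reach the level needed for comparison. None of its 7 genes had a mean of 20 CPM, and their summed level was 35.1 against 18.4 CPM in library 1 and 57.3 against 71.2 in library 2. The directions of the 2 libraries were opposite. Ciita, the activator of class II genes, had 0 UMIs in interferon-state and comparison cells of both libraries.

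Genes listed as linked to interferon gamma had high ratios from low levels. As above, the list name does not say which interferon acted. Of 25 in the files, 7 were compared and all 7 were higher (median log2 4.51), but none of the 7 reached 20 CPM in comparison cells, so each entered through the interferon-state cells. The list's summed level was 643 against 67.8 CPM in library 1 and 870 against 64.0 in library 2. Immunity-related GTPases, which attack the vacuoles of intracellular parasites, were among them. Igtp stood at 63.2 against 3.13 and 87.5 against 3.42 CPM (log2 4.34 and 4.68), in 22 and 30 cells. Iigp1 was at 47.4 against 0.59 and 67.9 against 0.45 CPM (log2 6.34 and 7.23), in 9 and 11 cells. Irgm1 (log2 2.47 and 3.30) and Ifi47 (4.42 and 5.74) were higher as well.

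Gbp2 was at 84.3 against 10.2 CPM in library 1 and 133 against 7.50 in library 2 (log2 3.05 and 4.15), and Gbp7 had 3.38 and 4.18. A single cell held 37.5% and 34.1% of the Gbp2 UMIs, and the log2 ratios without it were 2.37 and 3.54. The guanylate-binding proteins are close relatives, so reads may be shared among them. Gbp5 and Ido1 had 0 UMIs in interferon-state cells, and the checkpoint ligand Cd274 had 0 and 1 UMI.

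Cxcl10 was at 132 against 5.32 CPM in library 1 and 158 against 4.63 in library 2 (log2 4.63 and 5.10). Its 75 UMIs in library 1 lay in 3 cells with 45, 29 and 1, and its 105 UMIs in library 2 lay in 8 cells, the first 3 holding 73.3%. Comparison cells held 109 and 92 UMIs of Cxcl10 in 19 and 13 cells, which is 59.2% and 46.7% of all Cxcl10 UMIs in the basal gate. Of these comparison-cell UMIs, 92 and 81 lay in cells with a 6-gene sum from 2 to under 5, just below the limit. The related Cxcl9 had 18 and 12 UMIs in 4 and 4 interferon-state cells and did not reach the floor of 20 CPM.

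**Figure D4:**
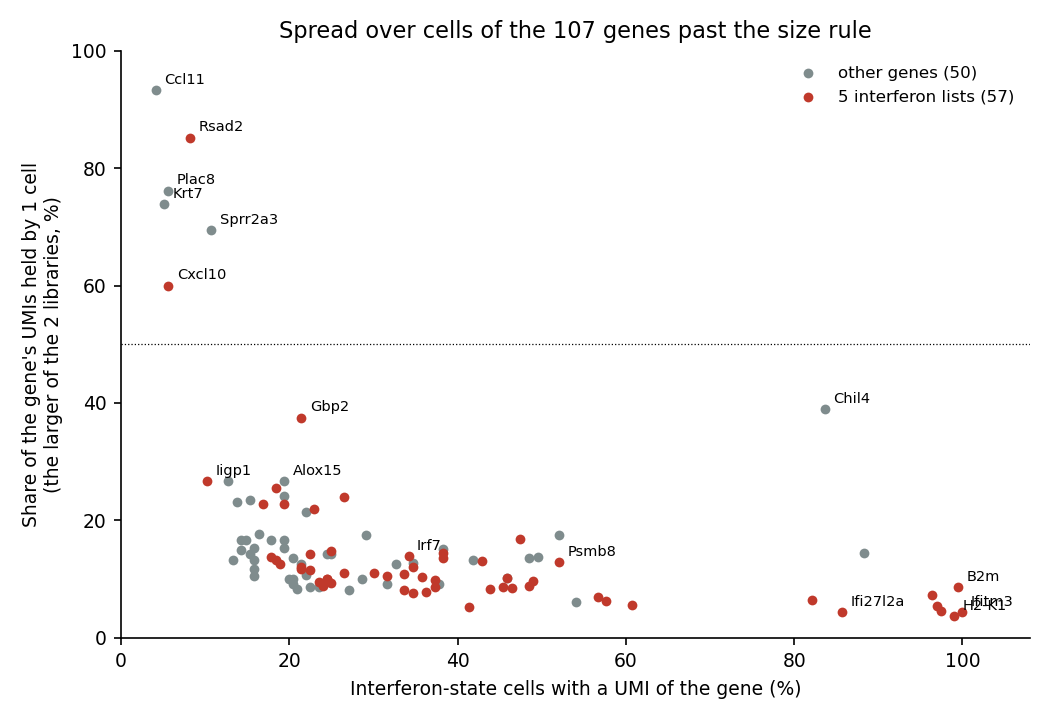
Each point is 1 of the 107 genes past the size rule, with the percentage of the 196 interferon-state cells that had a UMI across and the share of the gene's UMIs held by 1 cell (the larger of the 2 libraries) upward. B2m, H2-K1 and Ifitm3 lie at the lower right (nearly all cells), while Cxcl10, Rsad2, Plac8, Ccl11, Sprr2a3 and Krt7 lie above the dotted line at 50%.

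Among all 107 higher genes, 100 had a UMI in at least 10% of the interferon-state cells of both libraries, and 6 had over 50% of their UMIs in 1 cell of a library. Those 6 are Rsad2, Cxcl10, Plac8, Ccl11, Sprr2a3 and Krt7. With the top cell of each gene removed, 75 of the 107 were still at least 1.5-fold higher in both libraries, and 70 of these also kept the 20 CPM level.

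Few of the signalling genes were higher. None of the receptor genes passed the size rule. Ifnar1, a chain of the type I receptor, was at 24.6 against 19.0 CPM in library 1 and 16.6 against 19.5 in library 2. Ifngr1, a chain of the gamma receptor, was at 35.1 against 51.1 and 46.8 against 47.7 CPM. The Ifnar1 values of the 2 classes overlapped, while Ifngr1 was lower in interferon-state cells of both libraries by less than the size rule. Of 21 genes of this list, 11 were compared, 3 were higher and 0 lower, with a median log2 ratio of 0.25. Among the 9 with at least 20 CPM in comparison cells, 1 was higher (median 0.22).

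Irf7 and Irf9 were among the higher genes, and both are themselves interferon-induced. Irf7, which amplifies type I interferon production, was at 84.3 against 5.22 CPM in library 1 and 119 against 4.08 in library 2 (log2 4.01 and 4.87; chromosome 7, 141262706 to 141266481), in 25 and 42 cells. Irf9, the DNA-binding part of the factor that recognises the ISRE, was at 80.8 against 22.4 and 87.5 against 19.7 CPM (log2 1.85 and 2.15). For both genes, both interferon-state values lay above both comparison values. Stat2, which binds Irf9, was at 33.4 against 5.57 and 33.2 against 3.77 CPM but stood below the floor, and Irf1 was at 21.1 against 11.7 and 24.1 against 12.1 CPM, also below it. Stat3 (log2 0.52 and 0.05) was within the size rule.

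None of the interferon ligands was detected. All 10 ligand genes in the files, among them Ifnb1, Ifnk, Ifne, Ifng and Ifnl2, had 0 UMIs in interferon-state and comparison cells of both libraries. At this depth the 0 allows up to 0.146 and 0.151 CPM in comparison cells, but up to 5.27 and 4.52 CPM in the interferon-state cells.

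Of 15 sensors of nucleic acid and their adaptors, 3 were compared and 2 were higher. Both stood below 20 CPM in comparison cells, so they entered through the interferon-state cells, and the 1 compared gene at or above that level was not higher (log2 0.52). The RNA helicases Ddx58 (29.8 against 6.40 and 45.2 against 5.74 CPM, log2 2.22 and 2.98) and Ifih1 (38.6 against 10.8 and 51.3 against 9.91 CPM, log2 1.83 and 2.37) detect viral RNA in the cytosol. Their regulator Dhx58 was at 24.6 against 2.44 and 45.2 against 2.37 CPM, below the floor. The adaptor Mavs that both helicases signal through was at 5.27 against 11.1 and 9.05 against 10.4 CPM.

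Inflammatory and death genes moved less. Of 6 NF-κB and cytokine genes compared, none was higher or lower (median log2 0.28), with the inhibitor Nfkbia at 262 against 180 and 267 against 185 CPM. Of 7 cell death genes, Fas, a death receptor (log2 0.99 and 0.80), and Casp12 (0.86 and 0.73) were higher, and Bax and Casp1 were within the size rule. Of 6 p53 targets, none passed it (median 0.24), and none of 12 unfolded protein response and heat shock genes did (median 0.13).

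Basal attachment and identity genes did not separate the classes, which had passed the same sort and keratin gate. Of 8 basal keratin and transcription factor genes, none was higher or lower (median log2 0.01), and none of 10 hemidesmosome and basement membrane genes was (-0.11). Itgb4, the gene of the sorting antigen, was at 144 against 131 CPM in library 1 and 90.5 against 119 in library 2. Col17a1, a hemidesmosome collagen, was at 349 against 357 and 324 against 320 CPM. Krt15, a keratin of resting basal cells, was at 1700 against 2019 and 1697 against 2230 CPM, lower in both libraries and within the size rule.

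Genes of S phase gave opposite directions in the 2 libraries. The S-phase list had a median log2 ratio of -0.32 in library 1 and 0.38 in library 2, with 0 of 14 genes past the size rule. The G2/M list went the same way in both, within the size rule, with medians of 0.25 and 0.28 and sums of 4450 against 3694 and 5124 against 4210 CPM. Of its 24 genes 1 was higher, the checkpoint kinase Bub1b (log2 0.73 and 0.82). Cells with at least 10 UMIs per 10000 of either list were 40.5% of interferon-state and 44.0% of comparison cells in library 1, and 62.5% and 48.3% in library 2. Thinned to 3000 UMIs per cell, the shares were 47.6% and 47.6% in library 1, and 65.2% and 51.7% in library 2. The share of cycling cells was thus lower or equal in one library and higher in the other.

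The suprabasal differentiation list was above its comparison level in both libraries, at 4543 against 2258 and 3408 against 2329 CPM. Of its 11 compared genes 2 were higher, Sprr2a3 and Ly6d, and 0 lower, with a median log2 ratio of 0.45. Per cell the list's median was 14.8 against 9.34 per 10000 UMIs in library 1 and 15.6 against 11.3 in library 2, and 66.7% and 67.0% of interferon-state cells lay above the comparison median. Ly6d, a surface protein of the Ly6 family, was at 2128 against 998 and 1742 against 1084 CPM (log2 1.09 and 0.68), in 75 and 98 cells.

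Some defence and differentiation genes passed the size rule with most of their UMIs in few cells. Chil4, a chitinase-like secreted protein, summed to 5647 against 1519 CPM in library 1 and 5963 against 1066 in library 2 (log2 1.89 and 2.48). In library 1 its 3 fullest cells held 1251, 965 and 535 of 3216 UMIs (85.5%), and in library 2 they held 1398, 1194 and 619 of 3954 (81.2%). The median interferon-state cell had 3.16 and 3.58 UMIs per 10000, against 2.27 and 2.65 in comparison cells, so the typical cell differed far less than the sum.

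Alox15, a lipoxygenase, was at 77.3 against 16.5 and 136 against 14.2 CPM (log2 2.23 and 3.26), in 18 and 20 cells. Gsdmc, a member of the pore-forming gasdermins, was at 130 against 34.4 and 193 against 29.8 CPM (log2 1.92 and 2.70), in 23 and 34 cells. The 3 fullest cells held 40.9% and 67.8% of the Alox15 UMIs. Sprr2a3, a cornified envelope precursor with near-identical copies, was higher (log2 1.95 and 3.09), but 1 cell held 69.4% of its UMIs in library 1. Krt16, a stress keratin, did not pass the size rule, at 353 against 93.3 and 115 against 96.6 CPM, and 1 cell held 87.1% of the UMIs in library 1. Krt7, a glandular keratin, was higher (log2 1.25 and 0.83), with 57.1% and 73.9% of its UMIs in 1 cell. The chemokine Ccl11 was higher (log2 1.54 and 4.64), with 60.0% and 93.2% in 1 cell, and all 27 UMIs of Ccl5 lay in 1 cell of library 1.

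Cells with at least 5 UMIs per 10000 of Krt16, S100a8 and Alox15 together were 6 of 84 interferon-state cells (7.14%, exact interval 2.67 to 14.9) and 1.23% of comparison cells in library 1. In library 2 they were 5 of 112 (4.46%, 1.47 to 10.1) and 0.967%. The share was higher in interferon-state cells of both libraries and rests on 11 cells.

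Few genes were lower, and they rested on few UMIs. Tmprss11a, a surface serine protease of stratified epithelia, was at 149 against 272 CPM in library 1 and 133 against 298 in library 2 (log2 -0.86 and -1.17; chromosome 5, 86410410 to 86468990). Lpcat3, an enzyme of phospholipid remodelling, had -1.10 and -1.32, Tmem45a -1.04 and -0.78, Dapk2, a kinase, -0.76 and -0.83, and Smim8 -0.98 and -0.70. These 5 are among the 6 lower genes whose counting intervals lay clear of no difference in both libraries. Across the 15, interferon-state cells held between 3 and 88 UMIs of a gene per library.

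The levels of several genes were then followed across 6 bands of the 6-gene sum, from 0 to 20 and above. H2-K1 stood at 222, 353, 635, 953, 1050 and 1264 CPM from the lowest to the highest band in library 1. In library 2 it stood at 210, 366, 501, 812, 1246 and 1367. The order held at each step in both libraries, including the 3 bands below the limit of 5. Below the limit, the band of a cell depends on a few UMIs and on its depth. Median UMIs per cell in these 3 bands were 6409, 7463 and 5849 in library 1. In library 2 they were 5266, 6964.5 and 4604.5. Irf7 also rose at each step, from 3.73 to 158 CPM in library 1 and from 2.53 to 335 in library 2. Ifi27l2a rose at each step in library 1, from 87.0 to 1633 CPM, and in library 2 up to 1684 in the fifth band and 1411 in the last.

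Other genes did not rise at each step. Cxcl10 was at 87.5 and 81.0 CPM in the band from 2 to 5, in 5 and 3 cells, had 0 UMIs in the band from 5 to 10, and reached 306 and 679 CPM in the highest band. Rsad2 was concentrated in the highest band, at 253 and 256 CPM, with at most 21.9 in any other. Chil4 peaked at 11046 CPM in the fifth band of library 1 and at 19455 in the highest of library 2. Krt14, which the rule used, lay between 9436 and 11478 CPM in all bands. The highest band holds only 16 and 17 cells, and the bands come from the genes that chose the cells, so the order is a description.

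**Figure D5:**
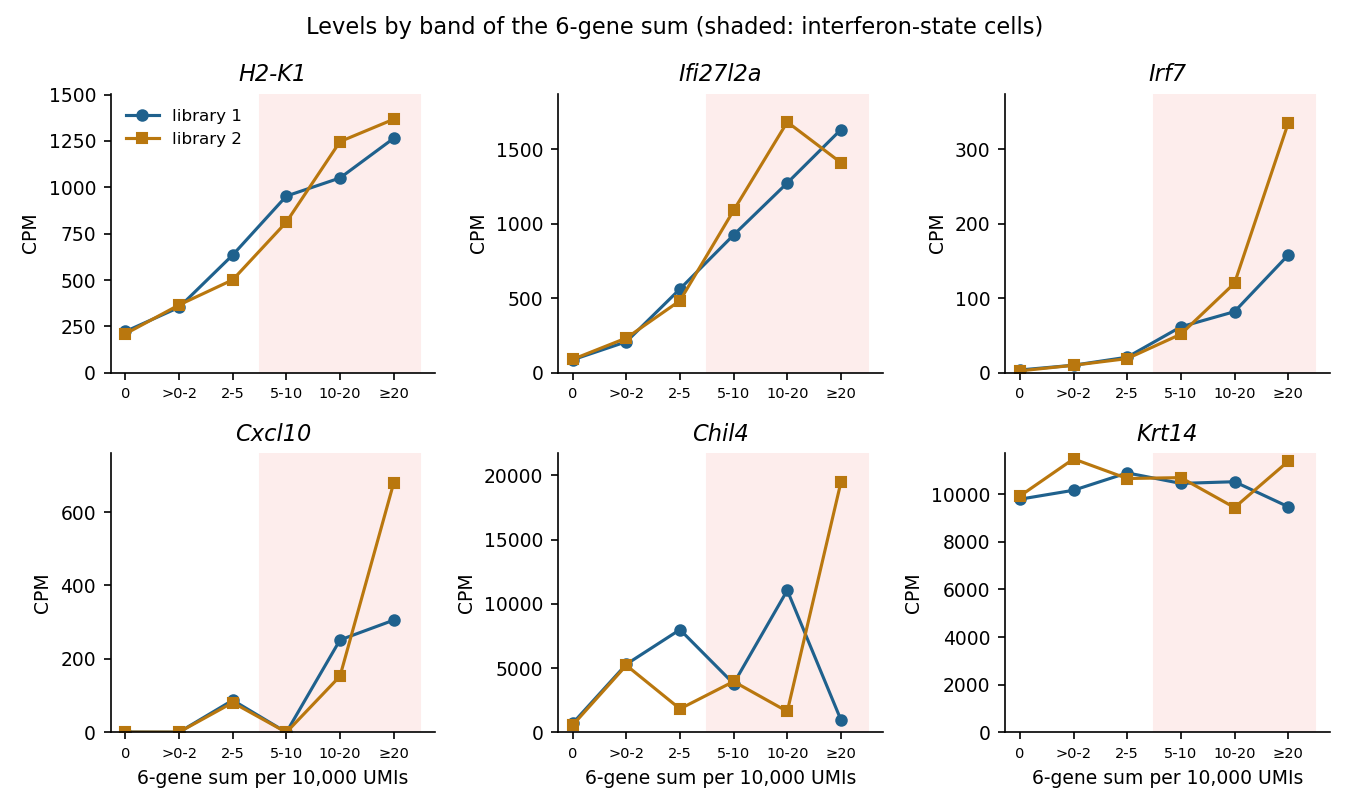
CPM of 6 genes by band of the 6-gene sum in library 1 (blue circles) and library 2 (brown squares); the shaded bands hold the interferon-state cells, 40, 28 and 16 in library 1 and 62, 33 and 17 in library 2. H2-K1 and Irf7 are higher at each step, Cxcl10 is at 0 in the band from 5 to 10, Chil4 follows no order, and Krt14 stays between 9436 and 11478 CPM.

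Shares of cells with a UMI were compared at 3000 UMIs per cell. Ifi27l2a was detected in 81.0% and 79.5% of interferon-state cells, in 19.4% and 19.3% of comparison cells, and in 17.6% and 26.7% of the 34 and 45 cells of any gate with 3 or more UMIs of leukocyte markers, whose median depths were 9299.5 and 7984 UMIs. Unthinned, the shares were 85.7% and 85.7% in interferon-state cells and 30.6% and 28.4% in comparison cells. Xaf1 was detected in 31.0% and 33.0% of interferon-state cells, 2.88% and 2.75% of comparison cells, and 2.94% and 6.67% of leukocyte-marked cells. H2-K1 was detected in 92.9% and 91.1% of interferon-state cells and 43.7% and 43.7% of comparison cells. Leukocytes themselves express class I, and H2-K1 was found in 79.4% and 77.8% of the marked cells.

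With the cells chosen by Isg15, Rtp4 and Oasl2 alone, at 2.5 or more per 10000 UMIs, the remaining rule genes could serve as readouts. This took 150 and 193 cells. Ifit1 was then at 136 against 2.45 CPM in library 1 and 207 against 3.09 in library 2 (log2 5.80 and 6.07). Cxcl10 was at 139 against 1.65 and 168 against 0.57 CPM (log2 6.39 and 8.21), so under this rule most of its UMIs fell inside the chosen cells. Ifi44 was at 42.4 against 1.25 and 67.6 against 0.93 CPM (log2 5.08 and 6.19), and B2m was at 3084 against 709 and 3168 against 740 CPM (log2 2.12 and 2.10).

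The same 6-gene limit was applied outside the basal gate. Among cells with Krt4 and Krt13 at 80 or more and the stress genes Krt16, S100a8 and Alox15 under 5 per 10000 UMIs, 90 of 3221 reached it in library 1 (2.79%, exact interval 2.25 to 3.42) and 146 of 4195 in library 2 (3.48%, 2.95 to 4.08). These shares overlap those of the basal gate, at 2.86% and 3.27%. Among cells with Krt4 and Krt13 at 80 or more and the stress genes at 5 or more, 30 of 169 reached it (17.8%, 12.3 to 24.4) and 65 of 270 (24.1%, 19.1 to 29.6). The intervals of that gate lie above those of the basal gate in both libraries. It is deeper, with medians of 15871 and 12430.5 UMIs per cell against 6499.5 and 5345.5, and at 3000 UMIs per cell its shares were 17.8% and 25.9% beside 3.17% and 3.30% in the basal gate. Bst2 was at 167 and 222 CPM in the basal interferon-state cells. It was at 332 and 347 in those of the stress gate, whose remaining cells had 73.3 and 86.0. Bst2 was also higher in the gate with stress genes under 5 and Krt4 and Krt13 at 80 or more. Cells that reached the limit had 227 and 216 CPM there, and the remaining cells 18.37 and 17.95. Among cells with Krt4 and Krt13 under 80 and Krt14 under 40, 17 of 581 and 19 of 678 reached the limit (2.926% and 2.802%). Their Bst2 was at 85.17 against 13.55 and 91.1 against 14.88 CPM. Higher Bst2 was thus not particular to the basal gate.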

How the data were processed

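Single-cell RNA was measured in buccal epithelium sorted for CD104, with 1 suspension divided into 2 technical libraries. The authors deposited counts, whole-number UMIs per gene and cell barcode, for each library. Cell Ranger and the build mm10 are named in the submitters' processing notes, without a version, and the settings are not given in the sources used here. The matrices hold 7215 and 9076 barcodes with 67962712 and 73935792 UMIs, with medians of 7485 and 6459 per barcode.

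Filters left 6907 and 8563 cells. Cells were gated on keratins and the 6-gene sum, and counts were summed per library and class (569476 and 663113 UMIs in interferon-state cells, 20479459 and 19873058 in comparison cells) and scaled to CPM. The ratio is descriptive: cells are not replicates, so no model or test was fitted, and the genes of the rule share their cells with all others. A summed count of 0 was set to 3 before a ratio was taken. Ratios carry exact conditional binomial 95% intervals, and shares exact Clopper-Pearson intervals. UMI counts of near-identical genes were used as deposited. Named genes were the 20 highest and 12 lowest past the size rule, the receptors and their transcription factors, and up to 5 genes by level plus every gene past the rule from each of 23 lists. Further genes were added after the values were seen. They were the other genes past the size rule, and low-level or single-cell genes such as Cxcl9, Gbp5, Cd274, Ccl5, Ido1, Ciita and Mavs. A few of these genes are not reported here. The members and lists were chosen with earlier results of these data known. The self-written procedure was tested on simulated sums drawn without differences between cells. That test does not cover genes with most of their UMIs in few cells. Gene positions come from GENCODE M21 (27645 of 27998 identifiers matched), promoters from a RefSeq table of GRCm38.p6. Scrublet marked 1 cell in each library (0.0145% and 0.0117%), too few to have worked, and was not used, so doublets were not removed. Python 3.11.15, numpy 2.4.6, scipy 1.17.1, pandas 2.3.3, scanpy 1.11.5 and matplotlib 3.10.9 were used.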

Additional observations from a re-analysis of the deposited data

How the results depend on the processing

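The 2 libraries are splits of 1 suspension, so none of the values below tests a condition. No paired analysis was possible because there is 1 group of mice and no test. The floor on comparison cells, the stricter keratin gate and the removal of each gene's top cell were chosen after seeing the data. In all 19 alternatives the higher genes outnumbered the lower ones, and the type I, gamma-linked and MHC class I medians stayed above 0 wherever they had a value. The gamma-linked list had none with the floor on comparison cells.

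The share of interferon-state cells (3.07% as the mean of the libraries) was 4.89% at a sum of 3, 1.48% at 10, 5.38% with Isg15, Rtp4 and Oasl2 alone, and 2.72% without cycling cells. The 107 higher genes became 207 at a sum of 10, 193 without cycling cells, 293 and 48 with floors of 5 and 50 CPM, 66 at 2-fold, 50 with the floor on comparison cells, and 70 without top cells, while 301 to 364 passed with either library left out, where only 1 library had to meet the rule. The 15 lower genes became 6 and 67 at sums of 3 and 10, 50 with cells thinned, 23 at 4 or more UMIs, 4 with the 3-gene rule, 31 at a mitochondrial limit of 5%, 52 without cycling cells, 138 and 2 with floors of 5 and 50 CPM, 2 at 2-fold, 34 at the stricter keratin gate, 52 without top cells (which takes counts from the interferon-state cells only), and 143 to 143 with a library left out. These are counts, and the genes behind them changed too. Of the 15 lower genes, 3 and 7 were called again at sums of 3 and 10, 7 with cells thinned and 4 without cycling cells. Of the 107 higher genes, 71 and 95 were called again at sums of 3 and 10, 79 with cells thinned and 83 without cycling cells.

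The type I median (2.25) was 1.91 and 2.91 at sums of 3 and 10, 2.11 thinned, 2.14 at 4 or more UMIs, 1.86 with the 3-gene rule, 2.39 at the mitochondrial limit of 5%, 2.39 against comparison cells at 0, 2.43 and 2.10 with floors of 5 and 50 CPM, 1.60 with the floor on comparison cells and 2.08 without top cells. The gamma-linked median (4.51) was 3.70 at a sum of 3, 3.89 at 4 or more UMIs, 3.77 with the 3-gene rule, 5.09 without cycling cells, 5.21 against comparison cells at 0, 4.26 and 4.23 with floors of 5 and 50 CPM, and 3.91 without top cells. The MHC class I median (1.78) was 1.44 and 2.03 at sums of 3 and 10, 1.54 thinned, 1.53 at 4 or more UMIs, 1.41 with the 3-gene rule, 1.58 without cycling cells, 1.57 with the floor of 50 CPM, 1.56 with the floor on comparison cells, 1.51 without top cells and 1.71 to 1.96 with a library left out. Of 1833 gene values, 7 changed sign: Actn1 was at -0.14 without cycling cells, Krt7 at -0.87 at a sum of 10, -0.43 at 4 or more UMIs and -0.54 without its top cell, Procr at 0.085, Spag5 at -0.11 and Spty2d1 at -0.0052 with cells thinned. The cause was not tested. The lower genes rest on 3 to 88 UMIs per library in the 84 and 112 cells.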

Other observations

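Cells with a UMI of Cxcl9 or Cxcl10 were set apart after the values were seen, so what follows is a description with no test. They were 7 and 10 interferon-state cells in library 1 and library 2, beside 77 and 102 interferon-state cells without such a UMI. The median 6-gene sum was 16.5 and 34.5 in the chemokine-positive cells, against 9.95 and 8.87 in the cells without such a UMI. Across the bands of that sum, Irf7 rose at each step and Rsad2 was concentrated in the highest band. Whether the differences below go beyond the difference in the sum was not tested. Gbp2 was at 608 and 862 CPM in the chemokine-positive cells against 38.2 and 39.1 in the others. A single cell held 37.5% and 34.1% of the Gbp2 UMIs of all interferon-state cells. Rsad2 was at 521 and 305 CPM against 5.73 and 17.0, but 1 cell held 23 of the 27 Rsad2 UMIs of all interferon-state cells in library 1 and 18 of 33 in library 2. Irf7 was at 261 and 385 against 68.8 and 85.1. Among class I genes, H2-K1 was at 1281 and 1207 CPM against 1014 and 1004, B2m at 7753 and 6088 against 3282 and 3786, and Psmb8 at 391 and 623 against 143 and 184. Leukocyte markers had a UMI in 1 and 1 of the chemokine-positive cells.

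Another 19 and 14 cells with a Cxcl9 or Cxcl10 UMI lay among the comparison cells, with a median 6-gene sum of 0. Of the Cxcl10-positive ones, 13 of 19 and 9 of 13 had no UMI of the 6 rule genes, although these held only 16 and 10 of the 109 and 92 Cxcl10 UMIs. In the 19 and 14 cells, Gbp2 was at 274 and 131 CPM. Irf1 was at 126 and 172 CPM, against 109 and 26.5 in the chemokine-positive interferon-state cells. The latter values rest on few UMIs, because those cells summed to only 46045 and 75400 UMIs over all genes. Their median depth was 6066 and 5867 UMIs, against 9164 and 8450 in the chemokine-positive comparison cells. Rsad2 had 0 UMIs there, and Irf7 was at 5.71 and 24.6 CPM. Leukocyte markers had a UMI in 2 and 0 of these cells.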
